A study of Mus musculus with 9 samples.

Results

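The genes described here encode the signals that pattern and renew skin and its hair follicles: the Wnt, BMP and TGF-beta, hedgehog, FGF and Notch pathways. They were chosen by a rule on names that used no measured value, although earlier results of these data were known. It took every probe set annotated to exactly 1 gene whose symbol marks a ligand, receptor, secreted antagonist, transducer or transcription factor of these pathways. The symbols were those of the Wnt, Fzd, Sfrp, Dkk, Tcf7, Axin, Bmp, Bmpr, Smad, Tgfb, Tgfbr, Ptch, Fgf, Notch, Jag and Hey families, with Lrp5, Lrp6, Ctnnb1, Lef1, Nog, Shh, Smo, Gli1 to Gli3, Edar and Hes1. This gave 126 probe sets of 102 genes, out of 8251 genes named on the array. Of these, 5 genes were matched by name only and were given no pathway role here (Bmp1, a procollagen protease, and Bmp2k, Fgfr1op2, Jagn1 and Tgfb1i1). They are left out of the counts by pathway, but their probe sets are in the counts and medians over all members. Jag1 and Edar, which the choice would have included, have no 1-gene probe set in the table used here.

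RNA came from whole skin of C57BL/6 mice that had received no ultraviolet light. The 5 knockout mice (Cd1d -/-) lack the antigen-presenting molecule that displays lipids to natural killer T cells, and the 4 wild type mice (Cd1d +/+) were matched to them for age and sex. Each mouse was hybridised to its own Affymetrix MG-U74 array, so the spread between arrays includes that between animals. The labels give neither the ages nor the stage of the hair cycle. The array of mouse n of a genotype is called knockout n or wild type n.

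Values are MAS5 signals in arbitrary units, given as mean ± SD over mice, and a level of 1 probe set is not comparable with that of another. Array medians ran from 72.5, in wild type 2, to 87.1, and any 2 arrays correlated at r of 0.892 to 0.968 across probe sets on the log2 scale. Cd1d1, the deleted gene, read 60.3 ± 12.7 in knockout (SD, n = 5) and 109 ± 16.7 in wild type skin (SD, n = 4), with every knockout value below every wild type value. This probe set did not pass the threshold used throughout (limma adjusted p = 0.242), and whether its probes lie in the deleted sequence is unknown. Markers of keratinocytes (Krt10, 5947 to 8270), fibroblasts (Col1a1, 2543 to 5899), fat (Adipoq, 1673 to 3122) and striated muscle (Acta1, 9339 to 12562) were present in all 9 arrays.

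A hair follicle cycles between growth (anagen), regression (catagen) and rest (telogen). Wnt ligands bind Frizzled and Lrp receptors, stabilise beta-catenin and act with Lef1 and the Tcf factors to start growth and to build the hair shaft. BMPs act through Smad proteins and hold follicle stem cells at rest until antagonists such as noggin counter them. Sonic hedgehog, released by the growing follicle epithelium, relieves the block that Ptch1 puts on Smo and so switches on Gli factors, and its targets include Ptch1 and Gli1 themselves. FGFs act in both directions, Fgf18 being known from resting follicles and Fgf5 as a signal that ends growth. Notch receptors, with the targets Hes1 and Hey1, guide the fate of inner follicle and epidermal cells.

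The hair state of each array was read from genes that encode the hair shaft and its sheath, none of them a signalling member. The hair score is the median over 27 such genes (hair keratins, keratin-associated proteins, S100a3, Tchh and Padi3) of the log2 signal centred on the 9 arrays. Knockout mice 1 to 5 scored 0.68, 3.32, -0.78, -2.04 and 2.86, and wild type mice 1 to 4 scored -0.97, -1.43, -0.02 and -1.25. Knockout 2 and 5 stood far above the rest, knockout 1 was next, and knockout 4 was the lowest of all, so the knockout mice spanned both ends of the range (mean 0.809 ± 2.30 against -0.92 ± 0.628). Krt71, a keratin of the inner root sheath, illustrates the scale, with 3893, 9340.4, 168, 36.5 and 6925 (knockout 1 to 5) against 217, 55.5, 446 and 54.8 (wild type 1 to 4).

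Other markers did not follow the same order of arrays. The pigment score, over melanocyte genes, was highest in knockout 2 (1.86) and knockout 1 (1.33) and only 0.23 in knockout 5. The score of cycling-cell genes was highest in knockout 1 (1.01) and knockout 2 (0.66), was 0.13 in knockout 5, and was lowest in wild type 4 (-1.02). A score over the inner root sheath genes alone placed knockout 1 (2.58) nearer to knockout 2 (4.14) and 5 (3.77) than the hair score did. In whole skin, fewer cells of a type and less RNA per cell cannot be told apart.

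**Figure D1:**
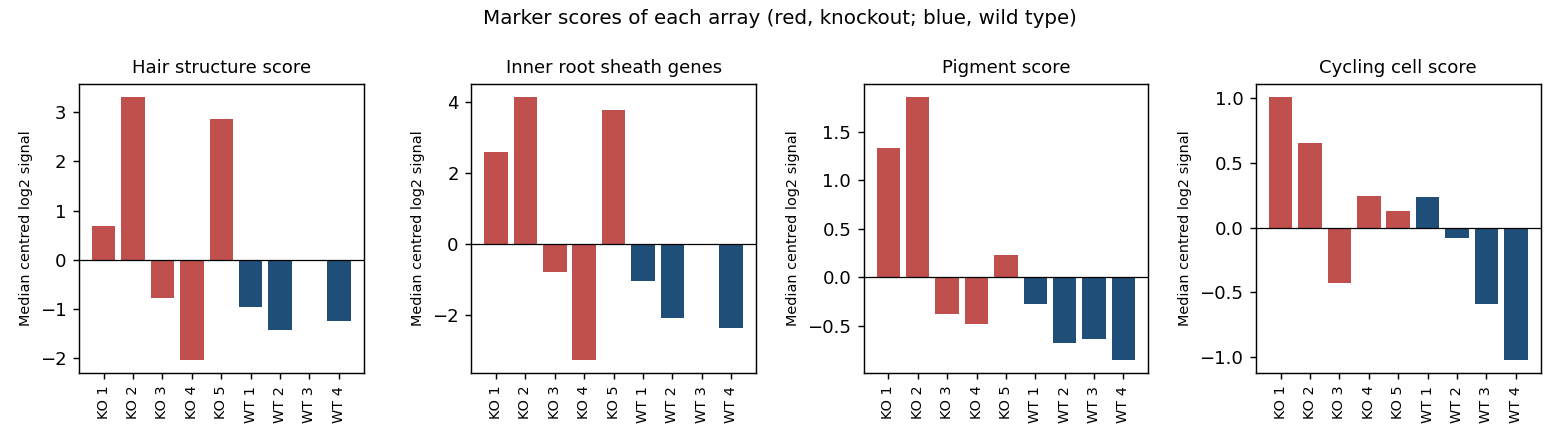
Bars give, for each of the 9 arrays, 4 marker scores, each the median centred log2 signal over a marker list (red, knockout; blue, wild type; 1 mouse per bar, so no error bar). Knockout 2 and 5 have the tallest hair structure bars (3.32 and 2.86), while knockout 1 and 2 have the tallest pigment and cycling bars; the bar of wild type 3 is close to 0 in the first 2 panels.

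Of the 126 member probe sets, 80 (70 genes) were bright enough to test, meaning at or above the 40th percentile of an array in at least 4 of the 9 arrays. The other 46 were dimmer, and for 32 genes this left no tested probe set, among them Wnt10b, Dkk1, Fgf5, Fgf10, Smad3, Tgfbr2, Notch4 and Bmpr1b. A member could pass this step through a group in which it was high, so the tested members are not all members. Fzd6, a Wnt receptor, did so through 1 genotype alone: its 4 arrays above the level were all knockout arrays, so no difference is given for it. Other members, Shh and Wnt5a among them, had 4 or more knockout arrays but only 1 wild type array above the level. Their knockout arrays alone were enough to pass, and they stay in the counts below. Leaving out Fzd6 therefore does not free the counts of members higher in knockout skin from this step. There were 57 probe sets above that level in all 9 arrays.

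The genotype comparison asks how skin without CD1d differs before any irradiation. No signalling gene passed the test, although more of them read higher than lower in knockout skin. limma called 0 of 80 members at an adjusted p under 0.05, where 4 of all 7658 tested probe sets were called (0.0522%). At an unadjusted p under 0.05, 12 members were higher (5.45% of all tested probe sets) and 1 was lower (3.96%). Positive differences were found in 54 of 80 members, against 51.2% of all probe sets, with a median log2 difference of 0.14 against 0.0071. Without Fzd6, 53 of 79 members were higher, and at an unadjusted p under 0.05, 11 were higher and 1 lower. One member separated the genotypes without overlap, Gli1 (1.83% of all probe sets did so in that direction), and 0 did so in the other direction (1.38%).

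Wild type 2 had the lowest signal of the 9 arrays in 34 of the 80 members (42.5%), against 21.8% of all tested probe sets, and it is also the array with the lowest median signal. Without wild type 2, 48 of 80 members read higher in knockout skin, 8 of them at an unadjusted p under 0.05, and their median difference was 0.075, against 48.4% and -0.0096 for all probe sets. With each array centred on its median, 51 of 80 members were higher, with a median of 0.094, against 42.8% and -0.038 for all probe sets. Wild type 2 also had the highest skeletal muscle score of the 9 arrays, 0.50 against -0.29 to 0.15 in the others. Actn3, a protein of fast muscle fibres, read 5528 there and 1670 to 2845 in the other 8 mice. Between genotypes, 13 of 15 skeletal muscle and 10 of 10 macrophage probe sets were lower in knockout skin. limma called 0 in either list, and 3 and 4 had an unadjusted p under 0.05, against 3.96% of all tested probe sets. Higher in knockout skin were 20 of 22 hair structure, 11 of 13 cycling-cell, 7 of 10 fat and 7 of 11 fibroblast probe sets. So were 4 of 5 keratinocyte and 2 of 2 melanocyte probe sets, against 51.2% of all. Among them 7, 5, 3, 2, 0 and 1 had an unadjusted p under 0.05 by limma (5.45% of all). At that level 1 fibroblast probe set was lower. The part of these cells in the difference was not tested.

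**Figure D2:**
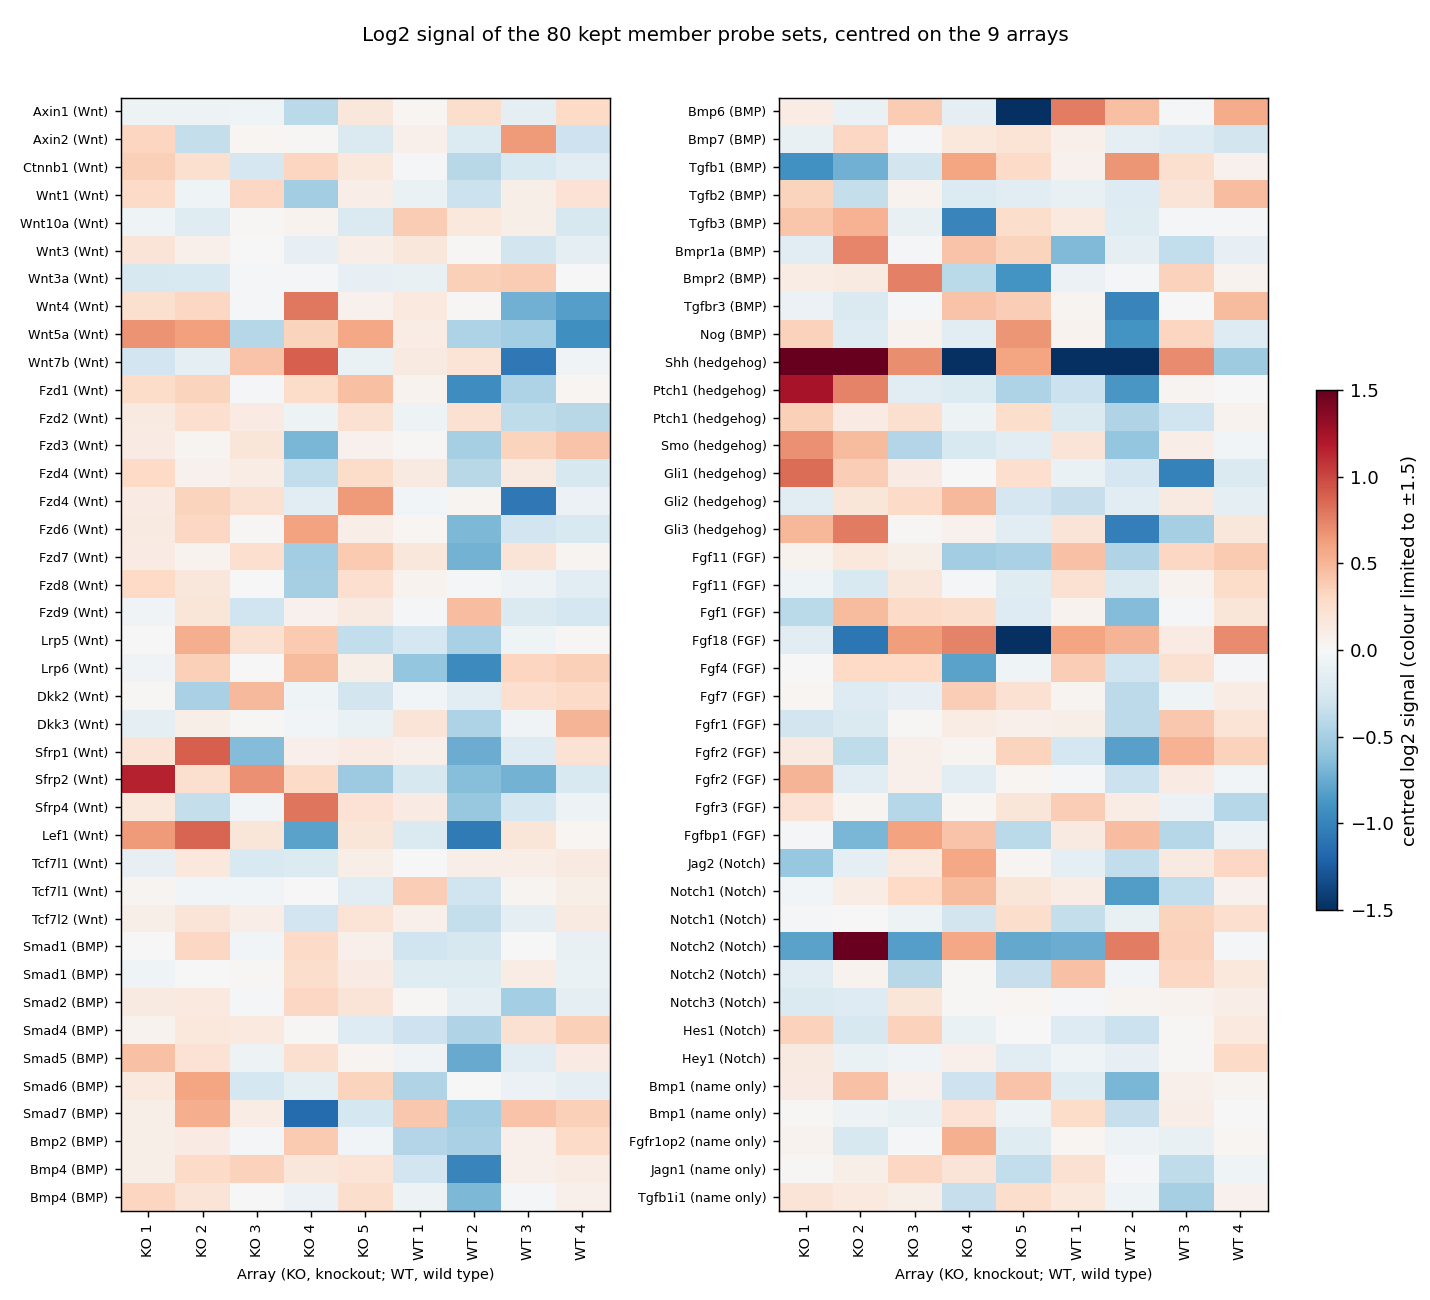
Each row is 1 of the 80 tested member probe sets, labelled by gene and pathway, and each column 1 array; colour gives log2 signal centred on the row, limited to ±1.5. The wild type 2 column is blue (below the row mean) in most rows, and it holds the lowest value in 34 of them.

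Hedgehog members read higher in knockout skin in all 7 tested probe sets, where 51.2% of all tested probe sets did. Their median log2 difference was 0.52, and 2 of 7 had an unadjusted p under 0.05 (5.45% of all were higher at that level). The count that read higher was 6 of 7 without wild type 2 or without knockout 1, and 7 of 7 after quantile normalisation or median centring. With the filter at the 60th percentile only 1 hedgehog probe set was left, and it read higher. Shh, the ligand, read 147, 177, 65, 12.8 and 60.7 (knockout 1 to 5) against 9, 12.7, 65.5 and 27.8 (wild type 1 to 4). Knockout 1 and 2 were highest, knockout 3 and 5 lay beside wild type 3, and knockout 4 was as low as wild type 2, so the genotypes overlapped. The means were 92.6 ± 67.6 in knockout (SD, n = 5) and 28.8 ± 25.8 in wild type skin (SD, n = 4), a log2 difference of 1.64 (SE 0.76, limma adjusted p = 0.543). Shh was above the level for a test in 4 knockout arrays but only 1 wild type array. Its difference therefore rests in part on dim signals.

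Ptch1, the receptor and a target of the pathway, is read by 2 probe sets. The first gave 310.1, 219.5, 118, 114 and 95.4 (knockout 1 to 5) against 105, 71.5, 135 and 131 (wild type 1 to 4). Again knockout 1 and 2 were alone above 200 while the other 3 knockout mice lay among the wild type mice, and the difference was 0.52 (SE 0.34, limma adjusted p = 0.663). The second gave 149.7, 128, 138, 111 and 141 (knockout 1 to 5) against 101, 85.8, 95.5 and 121 (wild type 1 to 4), closer together and with only knockout 4 below the highest wild type mouse. Its difference was 0.41 (SE 0.15, limma adjusted p = 0.443).

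Gli1, the transcription factor that reports active hedgehog signalling, read 132, 95.9, 81.1, 74.4 and 88.3 (knockout 1 to 5) against 69.1, 62.5, 36.7 and 64.1 (wild type 1 to 4). All 5 knockout values lay above all 4 wild type values, at 94.4 ± 22.7 in knockout (SD, n = 5) and 58.1 ± 14.5 in wild type skin (SD, n = 4). The log2 difference of 0.71 (SE 0.24, 95% interval 0.19 to 1.23) had the smallest p among the members (0.0118), and limma's adjusted p was 0.413. The deposited values carry 7 decimals in 5 arrays and 9 in the other 4, which is a property of the file and splits both genotypes. Gli1 differed by 1.09 within the 7-decimal arrays and by 0.23 within the 9-decimal arrays, which hold 1 wild type mouse; the count of hedgehog members above 0 was 7 of 7 in the former and 5 of 7 in the latter. The arrays with the highest Shh, Gli1 and first Ptch1 probe set, knockout 1 and 2, are also those with the highest cycling-cell and pigment scores (Mki67 206 and 231, with 35 to 149 in the other 7), and the part of these cells in the result was not tested.

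Smo, the signal-transducing partner of Ptch1, differed by 0.14 (SE 0.25). Gli2 and Gli3 differed by 0.24 (SE 0.22) and 0.53 (SE 0.31). None of the 3, which are named after their values were seen, had an unadjusted p under 0.05.

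Among Wnt members, 21 of 30 probe sets read higher in knockout skin, against 51.2% of all tested probe sets. Their median was 0.15, against 0.0071 for all. An unadjusted p under 0.05 was found for 6 of the 30, all of them higher (5.45% of all were higher at that level). Without Fzd6, which passed through knockout arrays alone, 20 of 29 read higher and 5 had such a p. Of 7 ligand probe sets 5 read higher (51.2% of all tested probe sets did). Wnt5a, a ligand of the beta-catenin-independent branch that dermal cells also make, read 81.2, 78.2, 37.8, 64.2 and 75.9 (knockout 1 to 5) against 55.2, 36.8, 35.8 and 27 (wild type 1 to 4). Knockout 3 was the one knockout mouse inside the wild type range, and the difference was 0.80 (SE 0.29, limma adjusted p = 0.443). Wnt5a was above the level for a test in 4 knockout arrays but only 1 wild type array. Within the 7-decimal arrays Wnt5a differed by 1.28 and within the 9-decimal arrays by 0.044. Wnt4, an epidermal ligand, read 191, 202, 159, 280.2 and 171 (knockout 1 to 5) against 180.4, 164, 98.8 and 91.9 (wild type 1 to 4). Wild type 3 and 4 were the lowest and wild type 1 and 2 lay among the knockout mice, and the difference was 0.62 (SE 0.24, limma adjusted p = 0.461). Wnt10a, a ligand of the follicle and tooth, differed by -0.18 (SE 0.15). Its relative Wnt10b was too dim on all 3 of its probe sets.

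The Frizzled and Lrp receptors read higher in 10 of 11 probe sets, with a median of 0.29, and in 9 of 10 without Fzd6. Of all tested probe sets 51.2% read higher. Fzd1 read 211, 219, 172, 212 and 238 (knockout 1 to 5) against 180.2, 91.6, 126 and 178 (wild type 1 to 4). All knockout mice but knockout 3 lay above all wild type mice, and wild type 2 was the lowest. The difference was 0.59 (SE 0.20, limma adjusted p = 0.417) and 0.39 without wild type 2. Fzd3, named after its values were seen, was the receptor that read lower, at -0.12 (SE 0.23).

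Secreted Wnt modulators read higher in 3 of 5 probe sets, where 51.2% of all tested probe sets did, with a median of 0.29. Sfrp2, which binds Wnt ligands outside the cell, read 427, 227, 309, 235 and 132 (knockout 1 to 5) against 163, 123, 118 and 164 (wild type 1 to 4). Knockout 1 was the highest and knockout 5 was among the wild type mice. Its difference, 0.82 (SE 0.28, limma adjusted p = 0.42), had the third smallest p among the members. Sfrp1 and Dkk3 differed by 0.29 (SE 0.28) and -0.08 (SE 0.18). Inside the cell, Ctnnb1, which encodes beta-catenin, read 2323, 2154, 1529.9, 2279 and 2026 (knockout 1 to 5) against 1785, 1362, 1545 and 1619 (wild type 1 to 4). Only knockout 3 lay within the wild type range, and the difference was 0.38 (SE 0.14, limma adjusted p = 0.443), 0.57 within the 7-decimal arrays and 0.11 within the 9-decimal arrays.

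BMP and TGF-beta members read higher in 14 of 19 probe sets, against 51.2% of all tested probe sets, with a median of 0.24. An unadjusted p under 0.05 was found for 4, all of them higher (5.45% of all were higher at that level). Bmp4, a ligand of the dermal papilla, differed by 0.49 (SE 0.21) on one probe set and by 0.31 (SE 0.21) on the other. On the first, wild type 2 read 113 and the other 8 mice 184 to 284. Bmpr1a, the type I receptor through which BMPs act in the follicle, read 78.9, 147, 86.5, 119 and 112 (knockout 1 to 5) against 55.7, 80.4, 68.2 and 80.9 (wild type 1 to 4). Knockout 1 was the one knockout mouse inside the wild type range, and the difference was 0.59 (SE 0.21, limma adjusted p = 0.441). Bmp2 (tested on 1 of its 3 probe sets) differed by 0.25 (SE 0.23), and the antagonist noggin (Nog) by 0.32 (SE 0.27). Tgfb1, a growth-inhibiting ligand associated with regression, leaned the other way at -0.46 (SE 0.29), with knockout 1 and 2 lowest at 78.3 and 89.3 and the other 7 mice at 121 to 232.

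FGF members were split, 5 of 11 higher with a median of -0.037, where 51.2% of all tested probe sets were higher. An unadjusted p under 0.05 was found for 0 of 11 (5.45% of all were higher and 3.96% lower at that level). Fgfr2, the receptor of epithelial cells, differed by 0.095 (SE 0.25) and 0.12 (SE 0.16) on its tested probe sets. Fgf7, its ligand from the dermis, differed by 0.14 (SE 0.21). Fgf5 stayed between 2.1 and 11.1 in every mouse, below the level for a test.

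Notch members read higher in 3 of 8, against 51.2% of all tested probe sets, with a median of -0.049. The 2 tested probe sets of Notch1, a receptor of the suprabasal epidermis and the hair matrix, differed in sign, 0.46 (SE 0.22) and -0.052 (SE 0.16). Hes1, a target, differed by 0.16 (SE 0.16). Only 1 member of any pathway read lower at an unadjusted p under 0.05, where 3.96% of all tested probe sets did. This was 1 of the 2 Notch2 probe sets, named after its values were seen. It read 92.2 ± 13.4 in knockout (SD, n = 5) and 121 ± 17 in wild type skin (SD, n = 4). The difference was -0.39 (SE 0.16, limma adjusted p = 0.506).

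**Figure D3:**
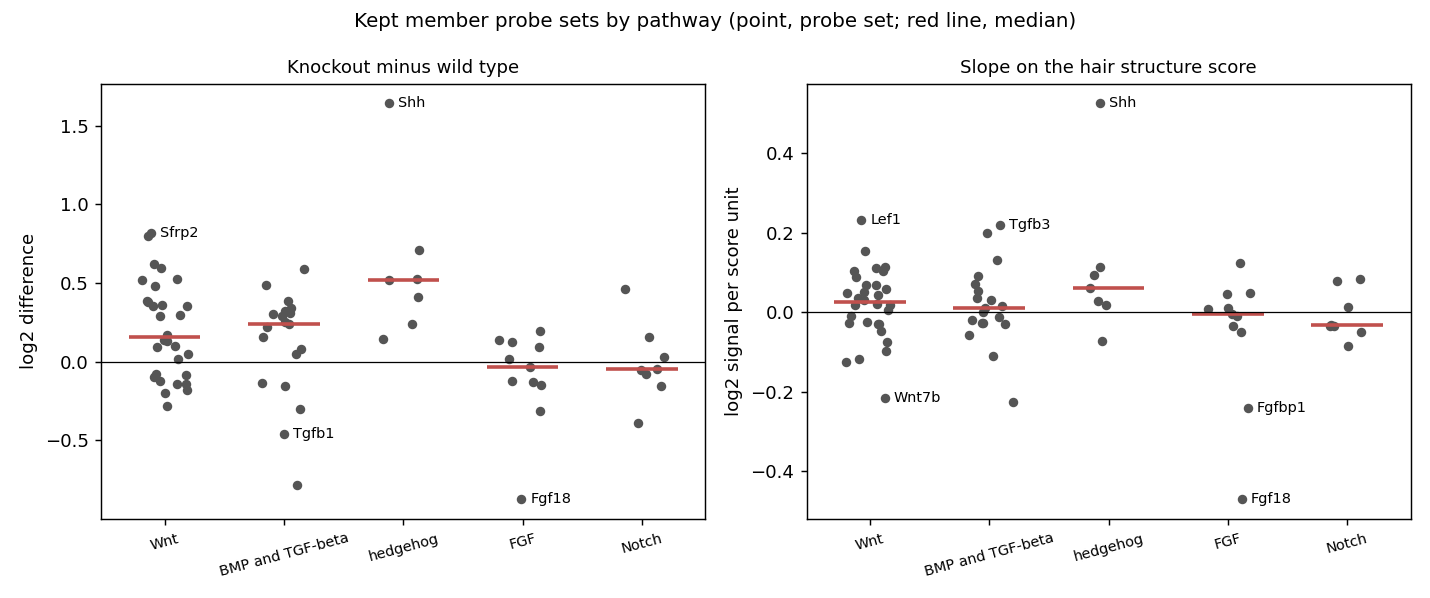
Each point is a tested member probe set of a pathway, with its log2 difference between genotypes on the left and its slope on the hair score on the right; red lines are pathway medians, and error bars and the genes matched by name only are left out. All 7 hedgehog points lie above 0 on the left, while on the right Shh (0.52) and Fgf18 (-0.47) lie farthest from 0.

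With the hair score as a covariate beside genotype, the signals that ran with or against hair-shaft genes could be asked for across mice. The slope is the change in log2 signal per unit of score at a given genotype; it is an association, since score and signal come from the same arrays. limma called 0 of 80 members, against 27 of 7658 probe sets (0.353%), all 27 with positive slopes and 17 of them probe sets of the score itself. At an unadjusted p under 0.05, 7 members had positive slopes (6.42% of all) and 4 negative (3.89%). Without knockout 4 the counts were 2 and 4. In the fit to all 9 arrays, 1 of the 7 and 1 of the 4 were of genes matched by name only. Slopes were positive in 46 of 80 members, against 46.4% of all probe sets, with a median of 0.014 against -0.0063. With 1 array left out, the members' median ran from 0.0056 (without wild type 2) to 0.031 (without knockout 5). With each array centred on its median it was -0.0014 (39 of 80 positive), against -0.021 for all probe sets. Within the 9-decimal arrays it was -0.0041, and with the replicate number as a block 0.071 (57 of 80). Its sign therefore depended on the setting.

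The member with the smallest p ran against the score. Fgf18, an FGF ligand known from resting follicles, read 47.2, 24.8, 81.4, 88.4 and 12.6 (knockout 1 to 5) against 79.7, 75, 57.6 and 86.3 (wild type 1 to 4). The 2 mice with the highest hair scores, knockout 2 and 5, had the lowest Fgf18, knockout 1 and wild type 3 followed, and the 5 mice with the lowest scores all read 75 or more. The slope was -0.47 (SE 0.086), and limma's adjusted p of 0.0513 lay just above the threshold. Other settings put it on either side, at an adjusted p from 0.00891 to 1.00. It passed in 10 of 27 of them, among them median centring (0.0217) and leaving out knockout 2 (0.0328), and among the 7 mice that remained without knockout 2 and 5 the slope was -0.33 (adjusted p = 0.376). Fgf18 is dim in the high-score mice, where 3 arrays were below the level for a test.

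Fgfbp1, a carrier that releases FGFs from the matrix, had the second smallest p and also ran against the score. It read 235, 149, 365, 323 and 180.5 (knockout 1 to 5) against 262, 331, 178 and 225 (wild type 1 to 4), lowest in knockout 2 and then in wild type 3 and knockout 5. The slope was -0.24 (SE 0.05, limma adjusted p = 0.115).

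Lef1, the partner of beta-catenin in the hair matrix, ran with the score. Its tested probe set gave 497, 583, 363, 183 and 364 (knockout 1 to 5) against 274, 153, 363 and 326 (wild type 1 to 4), highest in knockout 2 and 1 and lowest in wild type 2 and knockout 4. The slope was 0.23 (SE 0.082, limma adjusted p = 0.386), 0.12 without knockout 4, and 0.51 among the 7 mice without knockout 2 and 5. A second Lef1 probe set was too dim in 6 mice for the test, but gave 95.8, 109, 8.2, 5.4 and 54.6 (knockout 1 to 5) against 10.7, 11.8, 6 and 6.2 (wild type 1 to 4). The 3 mice with the highest hair scores were the only ones above 12, and no group statistic is given for it because it passed the level in those 3 arrays alone.

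The sequences just upstream of Fgf18 and Lef1 are shown because these ligand and transcription factor genes had slopes of opposite sign. They are the 250 bases before the annotated start, read 5′ to 3′ on the gene's strand from RefSeq sequence of assembly GRCm38.p6. For Fgf18 they are chr11:33147401-33147650 on the minus strand and for the first of 4 Lef1 starts chr3:131110047-131110296 on the plus strand. No letters are in capitals, because none of the 3 motifs searched is in them.
Fgf18 upstream: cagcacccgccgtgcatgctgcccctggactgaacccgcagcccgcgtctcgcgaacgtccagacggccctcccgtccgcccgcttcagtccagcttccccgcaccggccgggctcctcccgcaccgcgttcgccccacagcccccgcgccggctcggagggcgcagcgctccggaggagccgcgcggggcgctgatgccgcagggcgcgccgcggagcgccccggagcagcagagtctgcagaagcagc
Lef1 upstream: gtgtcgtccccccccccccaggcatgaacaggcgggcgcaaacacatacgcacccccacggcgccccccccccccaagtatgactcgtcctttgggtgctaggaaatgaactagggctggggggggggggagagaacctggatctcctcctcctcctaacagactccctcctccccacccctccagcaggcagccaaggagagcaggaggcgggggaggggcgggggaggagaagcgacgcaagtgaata

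The motifs were CTTTGAT for LEF/TCF factors, GACCACCCA for GLI factors and GTGGGAA for RBPJ, the DNA-binding partner of Notch, each on either strand. Windows of the same length were in the table for 69 of the 102 member genes. Of these, 3 held the LEF/TCF letters (4.35%, against 3.72% of all genes), 0 the GLI letters (0.255% of all genes) and 4 the RBPJ letters (5.80% against 6.18%). The 3 with LEF/TCF letters were Wnt5b, Wnt11 and Fgf6, none of which was bright enough for the test. A match is a description of the letters and not of binding.

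**Figure D4:**
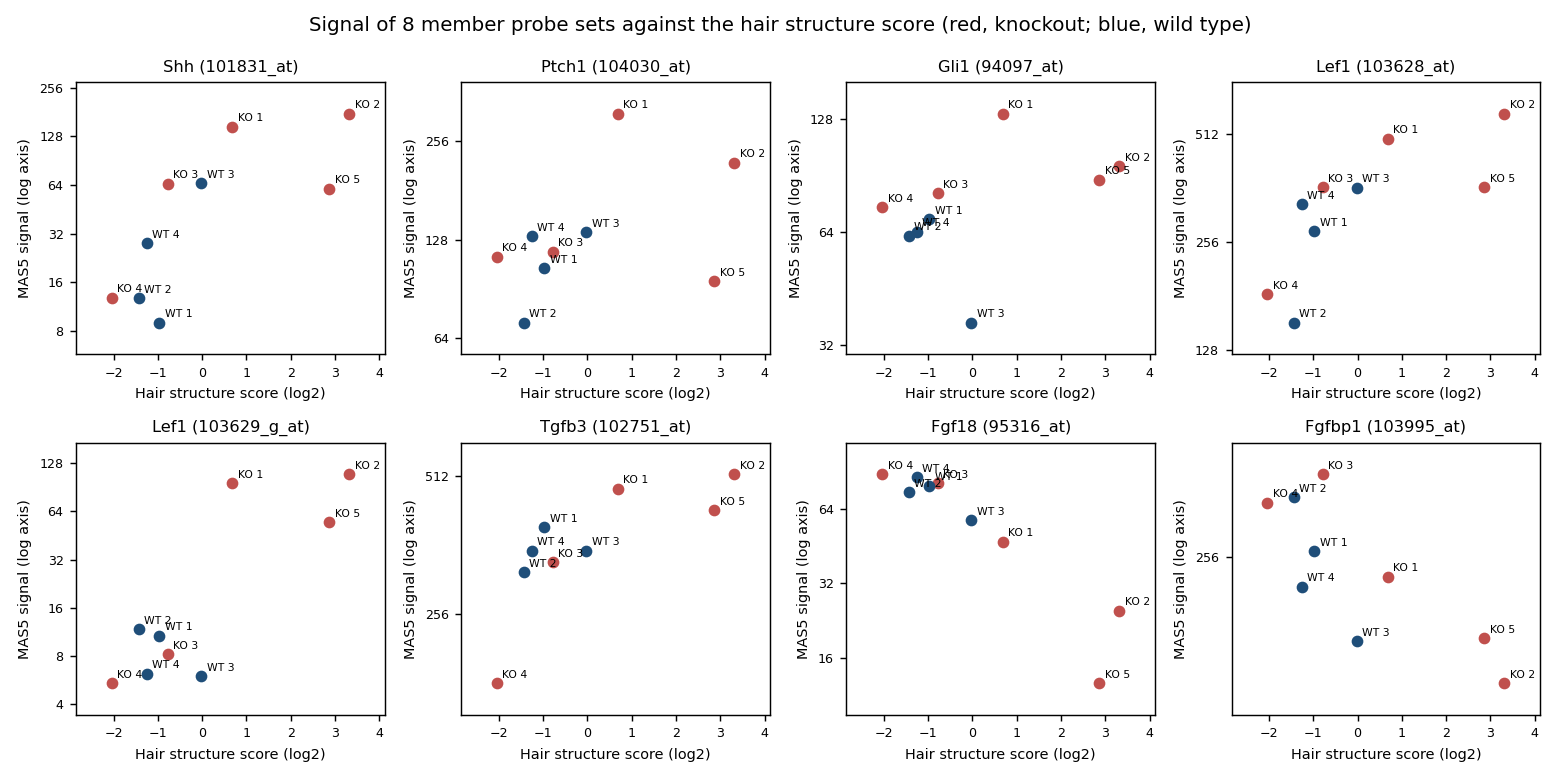
MAS5 signal (log axis) of 8 member probe sets is plotted against the hair structure score of the same array, 1 point per mouse (red, knockout; blue, wild type). Fgf18 and Fgfbp1 are lower at the right, where knockout 2 and 5 lie, while Ptch1 and the second Lef1 probe set are highest in knockout 1 or 2.

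In the BMP and TGF-beta group, Tgfb3 had the smallest p for a slope. It encodes a TGF-beta ligand and read 482, 517, 332, 180.5 and 432 (knockout 1 to 5) against 396, 316, 352 and 352 (wild type 1 to 4). Knockout 2, 1 and 5 were highest and knockout 4, with the lowest hair score, was far below the rest. The slope was 0.22 (SE 0.056, limma adjusted p = 0.259), 0.11 without knockout 4, and 0.049 within the 7-decimal arrays. With the inner root sheath score in place of the hair score, a choice made after seeing the arrays, it was 0.17 (limma adjusted p = 0.0507; range over its settings 0.0507 to 1.00).

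The inhibitory Smads, which are induced by the pathway and damp it, both had positive slopes. Smad6 gave 0.13 (SE 0.048) and Smad7 0.20 (SE 0.086), the latter 0.054 without knockout 4. Their adjusted p values were 0.387 and 0.447 by limma. Bmp4, Bmpr1a and Bmp2, of the signal tied to follicle rest, and its antagonist Nog had slopes between -0.028 and 0.09. Each had an unadjusted p above 0.05 by limma.

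Shh had the steepest positive slope, 0.52 (SE 0.19, limma adjusted p = 0.392). It was 0.28 without knockout 4 and 1.22 among the 7 mice without knockout 2 and 5. Knockout 4 and wild type 1, 2 and 4 were below the level for a test, so the slope rests partly on dim signals. Knockout 5 combined a hair score of 2.86 with an Shh signal of 60.7. The downstream genes showed less: the slopes of Ptch1 were 0.094 (SE 0.11) and 0.027 (SE 0.049), and that of Gli1 was 0.019 (SE 0.078). In the same mouse, second only to knockout 2 in hair score, the first Ptch1 probe set read 95.4, inside the wild type range.

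Among the other Wnt members, Wnt7b, a ligand of the follicle and epidermis, ran against the score. It read 66.2, 72.7, 108, 149.7 and 75.4 (knockout 1 to 5) against 88.9, 93.1, 38.3 and 77.5 (wild type 1 to 4), highest in knockout 4 and 3, with a slope of -0.22 (SE 0.078, limma adjusted p = 0.387). Fzd8, a Wnt receptor, and Tcf7l1, a transcriptional repressor of follicle stem cells, had slopes of 0.10 (SE 0.045) and 0.069 (SE 0.035). The sign of neither held in every setting, since Fzd8 gave -0.034 within the 7-decimal arrays and the other Tcf7l1 probe set gave -0.0092. Ctnnb1, Wnt5a, Wnt10a, Sfrp1 and Dkk3 had slopes of 0.019, 0.11, -0.046, 0.15 and 0.0061, each with an unadjusted p above 0.05.

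Of the genes matched by name only, Bmp1 had a slope of 0.14 (SE 0.05) on one probe set and -0.025 (SE 0.047) on the other. Fgfr1op2 had a slope of -0.11 (SE 0.045). Across the 10 genes with 2 tested probe sets, the pair had the same sign of the genotype difference in 8 and of the slope in 5. No Notch member had an unadjusted p under 0.05 for its slope; the 8 slopes lay between -0.084 and 0.083, with Hes1 at -0.034 (SE 0.051).

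When the hair score was held, the genotype difference called 0 of 80 members by limma, against 3 of 7658 probe sets (0.0392%). At an unadjusted p under 0.05, 7 members passed, all higher in knockout skin (5.51% of all were higher at that level and 5.25% lower). This count rested on single arrays, being 1 higher and 1 lower without wild type 3, 4 and 1 without knockout 4, and 11 and 0 without wild type 1. With the pigment score in place of the hair score it was 1 higher and 2 lower. Sfrp2 had the smallest p, with a difference of 1.04 (SE 0.30, limma adjusted p = 0.354). Wnt4 was at 0.75 (SE 0.26) and Wnt7b at 0.73 (SE 0.28), the latter 0.35 without the score in the model. Gli1 was at 0.68 (SE 0.28), close to its 0.71 without the score. For Shh the value was 0.73 (SE 0.69) against 1.64, and for Fgf18 -0.062 (SE 0.31) against -0.87. Positive values were found in 51 of 80 members, with a median of 0.08 against 0.019 for all probe sets. Without wild type 2 these were 41 of 80, with a median of 0.024 against 0.0079, and without wild type 4 the median was 0.16.

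Other genes of the same pathways, taken from lists of regulators and targets, also gave 0 calls in the genotype and slope fits. At an unadjusted p under 0.05 by limma, 5 of 30 probe sets of the further Wnt list, which holds genes such as Apc and Dvl1, were higher in knockout skin and 0 lower, where 5.45% of all tested probe sets were higher and 3.96% lower. In the BMP and TGF-beta list 4 of 29 were higher and 1 lower, in hedgehog 1 and 1 of 6, in FGF 1 and 0 of 15, in Notch 1 and 0 of 18, and in the ectodysplasin pathway, which starts follicles in the embryo, 0 of 9 in either direction. At any p, 24 of 30 Wnt, 15 of 29 BMP and TGF-beta and 3 of 6 hedgehog probe sets were higher. So were 8 of 15 FGF, 9 of 18 Notch and 6 of 9 ectodysplasin probe sets, against 51.2% of all. The median difference of the hedgehog list was -0.042. For the slope the counts with positive and negative sign were 1 and 1, 3 and 2, 0 and 0, 2 and 0, 0 and 0, and 0 and 1 in the same order, where 6.42% of all probe sets had positive and 3.89% negative slopes at that level. The smallest p for a slope among them belonged to Dlx3, a homeobox gene of the hair matrix, named after its values were seen. It read 543, 847, 131, 154 and 515 (knockout 1 to 5) against 164, 136, 153 and 175 (wild type 1 to 4), high in the same 3 mice as the second Lef1 probe set, with a slope of 0.44 (SE 0.083, limma adjusted p = 0.0607).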

How the data were processed

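Skin RNA of 9 mice, 5 knockout and 4 wild type, was read on 1 array each. Per the labels, signals were computed by the authors in Microarray Suite 5.0 (MAS5), which corrects perfect-match by mismatch probes. The deposited values are natural log (ln) signals, which was settled from the numbers: the exponential of 100% of them is a multiple of 0.1 in every array, and the trimmed mean signal is 200.11 to 200.133 throughout, so arrays had been scaled to one target. Detection calls and scanner files were not used here. The number of mice limits the precision, and MAS5 gives dim probe sets a large relative error.

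Here the ln values were divided by ln 2 and not normalised again. Of 12488 probe sets, 66 controls were left out, 10833 have 1 gene in the platform annotation, 396 several and 1193 none, and 1 value is missing. Probe sets at or above the 40th percentile (signal 43.4 to 53.3) in at least 4 of 9 arrays were kept, which left 7658. Genotype, the slope on the hair score with genotype, and genotype with the score held were tested two-sided in R 4.3.3 with limma 3.58.1 (lmFit, eBayes with trend), with Benjamini-Hochberg adjustment over the 7658 and a threshold of 0.05. The score used 27 genes, 1 probe set each, bright in at least 1 array.

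Genes named in the text were 23 members taken whatever their values, the 12 with the smallest p for the slope and the 8 with the smallest p for genotype. Smo, Gli2, Gli3, Fzd3, 1 Notch2 probe set and Dlx3 were named after their values were seen, and Fzd6 for how it passed the filter. Members, lists and tests were chosen with earlier results of these data known. Alternatives changed the filter, pseudocount (16), normalisation, trend, array weights, score, blocks and arrays. On simulated arrays (7658 probe sets, 20 runs), changes of 1.5-, 2- and 4-fold were recovered in 31.9%, 70.8% and 95.1% of cases for genotype. For the slope, with the fold taken over the whole range of the score, the shares were 1.87%, 22.2% and 74.8%. With the score held they were 18.1%, 58.4% and 92.8%. The simulated noise left out the spread that goes with the hair score, which the real genotype fit includes. More probe sets were changed in each run than were called in the data. The shares, above all those for genotype, can therefore be too high for these data.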

Additional observations from a re-analysis of the deposited data

Results flagged for a closer look

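Each genotype of 54 probe sets of the genes named in the text, and of the hair score, was searched for an array far from the others of its group. This made 110 groups; chance marks about 1 in 20, and 3 were marked. In Smad7, an inhibitory Smad, wild type 2 read 70.5, while the nearest of the other wild type mice read 130.2. In Fzd3, a Wnt receptor, knockout 4 read 94.3 on the tested probe set and the nearest other knockout mouse 156. In 1 of the 3 dim Wnt10b probe sets, knockout 4 read 12.2 and the nearest other knockout mouse 36.3. Wild type 2 is the array with the lowest median signal, and knockout 4 the one with the lowest hair score.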

How the results depend on the processing

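The genotype difference gave 0 called members in every alternative, with the hair score held or not, including each array left out. The slope gave 0 as well, except that 1 member was called with the filter in at least 1 array, pseudocount 16, quantile normalisation, median centring, no trend, the mean over score genes, kept probe sets alone in the score, or no genotype term. Array weights gave 2. Leaving out each array gave 0 to 1, the 1 coming without knockout 2. The called member was Fgf18 each time, joined by Fgfbp1 (limma adjusted p = 0.0143; 0.0143 to 1.00 over its settings) under array weights. Slopes changed sign for Fzd8 in the arrays with 7 decimals (-0.034), for Bmp1 on its other probe set (-0.025) and for Tcf7l1 on its other probe set (-0.0092). The cause was not tested.

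Replicate numbers were checked as a pairing. Same-numbered mice correlated at 0.106, -0.012, -0.046 and 0.019 for numbers 1 to 4, and 1 of 4 correlated best with its own number. So few correlations cannot settle whether the number pairs mice, and it was not used as a pairing in the main fits. With the replicate block, 0 members were called for genotype, 0 for the slope and 0 with the score held. Under the block, 14 members had positive and 4 negative slopes at an unadjusted p under 0.05, against 7 and 4 in the main fit. With the score held 43 of 80 members were higher, with a median of 0.023, against 51 of 80 and 0.08 in the main fit. Over all probe sets the block gave 1, 20 and 0 calls, against 4, 27 and 3.

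Calls over all probe sets ranged from 0 to 10 for genotype, from 1 to 36 for the slope and from 0 to 5 with the score held. Signal near background limits the 46 dim probe sets.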
